A study of Mus musculus with 6 samples.

Results

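The extracellular matrix genes of the growing lung were followed in mice at postnatal day 15 (PN15), in RNA of the whole lung. A list of 40 genes was used: collagens, elastic fibre proteins, the lysyl oxidases that cross-link them, proteoglycans and adhesive glycoproteins. A gene was measured where a probe set of the array carried its symbol alone, and its brightest probe set represented it. This gave 37 of the 40 genes, with 89 probe sets, among 18193 named genes on the array. Loxl2 shares its probe sets with another gene, and no probe set was matched to Fbn1 or Spp1, so these 3 were not analysed here.

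Alveoli form after birth, when ridges of tissue grow out into the primitive air sacs. Fibroblasts and myofibroblasts at the ridge tips lay down elastin and fibrillar collagen, while epithelium, endothelium and pericytes contribute to the basement membrane between air and blood. Elastin is deposited on a scaffold of microfibrils and cross-linked by lysyl oxidases, and most of it is made in this period of life.

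The controls were 3 samples with the genotype label "wildtype, control", and the other 3 samples carry the label Foxa2-/-, the loss of a forkhead transcription factor of lung epithelium. All 6 share the strain label SPC(+)Cre(-) and doxycycline (Dox) from embryonic day 6.5 to 12.5, and the design text calls the controls littermates. The strain label names no Cre in either group, so Foxa2 itself was read first. SPC is the usual abbreviation of surfactant protein C, whose promoter is active in lung epithelium, and most of the matrix genes are made by other cells. Each sample is 1 Affymetrix array of log2 signals equalised between arrays. The labels do not state that each array is a separate animal. The p-values therefore reflect only how much these 6 arrays vary, and some of that may be technical. Foxa2 read 10.28, 10.56 and 10.28 in control replicates 1 to 3 and 7.72, 5.38 and 5.13 in null replicates 1 to 3, a difference of -4.30 (SE 0.66, limma adjusted p = 0.0599). Null replicate 1 kept the most Foxa2 signal and stood apart from the other null arrays over all genes, with a second principal component score of 50.8 against -26.2 and -23.1. The tissue label is whole lung, and the type I cell gene Ager (14.19 to 14.50 over the 6 arrays) and the endothelial gene Pecam1 (11.85 to 12.37) were bright on every array. Control replicate 2 and null replicates 2 and 3 share a number in their titles whose meaning is not given. As a sign of RNA quality, the log2 excess of the 3-prime over the 5-prime Gapdh probe set lay at 1.06 to 1.23 in the control arrays and 0.91 to 0.97 in the null arrays. The same measure for Actb overlapped, at 0.46 to 0.65 in the control arrays and 0.43 to 0.47 in the null arrays. The part of RNA quality in the differences below was not tested.

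None of the 37 matrix genes passed the test in either direction (limma, Benjamini-Hochberg adjusted p under 0.05 over all genes), where 0.572% of all genes did. At an unadjusted p under 0.05 there were 2 of them, or 5.41%, against 12.3% of all genes. Col14a1 was the 1 on the higher side (7.28% of all genes) and Col12a1 the 1 on the lower side (5.07% of all genes). The differences, null minus control on the log2 scale, ran from -0.77 to 0.44 with a median of -0.09, beside a median of 0.01 over all genes. Of the 37, 30 were negative and 7 positive. The 95% interval of the difference lay within 2-fold in either direction for 30 of the 37 (81.1%, against 81.6% of all genes) and within 1.5-fold for 21 (56.8%, against 53.8%). For the other 7 (Col12a1, Col15a1, Fbln2, Fbn2, Dcn, Lum and Vcan) the interval reached beyond 2-fold in 1 direction.

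**Figure D1:**
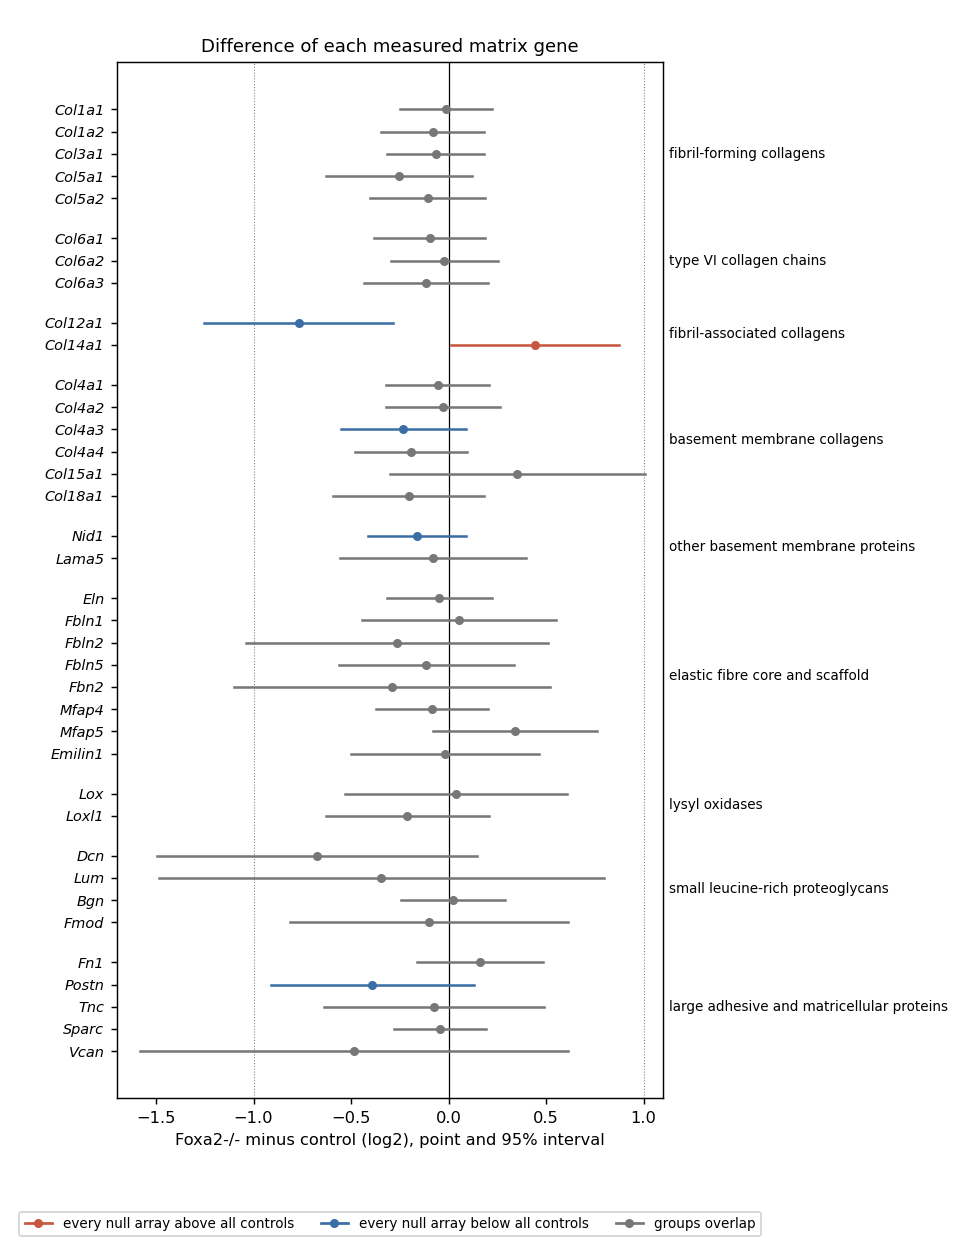
Difference of each of the 37 matrix genes between Foxa2-/- and control lungs (log2), with its 95% interval, ordered by role, with dotted lines at 2-fold, red where every null array is above all controls, blue where every one is below, and grey where groups overlap. Col12a1 has the most negative difference (-0.77) and Col14a1 the most positive (0.44), and most intervals cross 0 inside the dotted lines.

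The fibril-forming collagens give the lung its tensile strength. Col1a1, a chain of type I collagen, read 13.72, 13.75 and 13.79 in controls and 13.77, 13.71 and 13.73 in null lungs. Its difference of -0.01 (SE 0.10, 95% interval -0.25 to 0.22, limma adjusted p = 0.969) is within the spread of either group. Col1a2, the partner chain, differed by -0.08 (95% interval -0.35 to 0.18), and Col3a1, of type III collagen, by -0.06 (95% interval -0.31 to 0.18). Type V collagen, which sets the diameter of fibrils, is encoded by Col5a1 and Col5a2 here. They differed by -0.25 (95% interval -0.63 to 0.12) and -0.11 (95% interval -0.40 to 0.19). All 5 differences were negative, with a median of -0.08. In all 5 genes the groups overlapped, where 19.6% of all genes had groups that did not overlap. All 5 but Col5a1 lie above the 90th percentile of signal, as do 22 of the 37 genes in all. Of all 1820 genes that bright, 0.165% passed the test.

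Type VI collagen forms beaded filaments around cells and next to basement membranes, from the chains Col6a1, Col6a2 and Col6a3. Their differences were -0.10, -0.02 and -0.12 (95% intervals -0.38 to 0.19, -0.30 to 0.25 and -0.43 to 0.20). In each chain null replicate 1 lay within or above the controls and null replicate 3 below all of them. Of the 25 listed genes with a promoter window, Col6a1 was the only one to hold the forkhead core TGTTTAC, searched on both strands. That is 1 of the 32 windows of these genes, near the share of 3.65% over all 32851 promoter windows of 300 bases. The 250 bases before the Col6a1 start (RefSeq, GRCm38.p6, chr10:76726045-76726294, minus strand) are shown with the motif in capitals, on the opposite strand, 211 to 205 bases before the start:
Col6a1: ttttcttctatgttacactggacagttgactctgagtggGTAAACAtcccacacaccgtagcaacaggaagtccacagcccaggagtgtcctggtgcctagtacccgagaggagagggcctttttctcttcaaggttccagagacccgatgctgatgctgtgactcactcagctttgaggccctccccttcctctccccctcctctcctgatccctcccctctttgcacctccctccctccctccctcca
Col6a1 read 13.39, 13.35 and 13.27 in controls and 13.40, 13.18 and 13.12 in null lungs (limma adjusted p = 0.776). The match is a description of the letters and not a site of binding.

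The fibril-associated collagens, which coat collagen fibrils and link them to their surroundings, gave the most negative and the most positive difference of the whole set. Col12a1, type XII collagen, read 9.47, 9.85 and 9.67 in controls and 9.23, 8.90 and 8.54 in null lungs. All 3 null arrays lay below all 3 controls, and null replicate 1 was the nearest to them. The difference of -0.77 (SE 0.20, 95% interval -1.25 to -0.28) corresponds to a ratio of 1.70 of control over null, and it did not pass (limma adjusted p = 0.187). It was -0.94 without null replicate 1 (SE 0.17, limma adjusted p = 0.0792, where 1.37% of all genes passed). With any other single array left out, the smallest adjusted p among the 37 genes was 0.324 to 0.425 (limma), where 0% to 0.104% of all genes passed. A random block on the title number gave a difference of -0.91 (limma adjusted p = 0.07, where 2.19% of all genes passed). Between the 3 arrays with a common title number it was -1.13, and the control among them is the highest of the 3 controls (9.85). With array weights, which gave null replicate 1 a weight of 0.225, it was -0.87 and passed (SE 0.17, limma adjusted p = 0.0465, where 3.34% of all genes passed). The other 3 probe sets of Col12a1 are dim, with control means of 3.72 to 5.73, and differed by -0.04 to 0.12. Averaged over its 4 probe sets, Col12a1 differed by -0.18 (limma adjusted p = 0.627).

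Col14a1, type XIV collagen, lay on the other side. It read 9.589, 9.499 and 8.999 in controls and 9.70, 9.92 and 9.79 in null lungs, so every null array was above all controls. Its difference was 0.44 (SE 0.18, 95% interval 0.01 to 0.87, limma adjusted p = 0.391). The next probe set of the gene gave 0.38 (SE 0.19) with overlapping groups. Control replicate 3 was the lowest of the controls for Col14a1, and also for Col15a1, Fbln2, Mfap5, Lum and Fn1. The same held for many of the other matrix genes, among them Col1a2, Col3a1, Col6a3, Col4a1, Fbln5 and Mfap4, whose differences were negative.

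**Figure D2:**
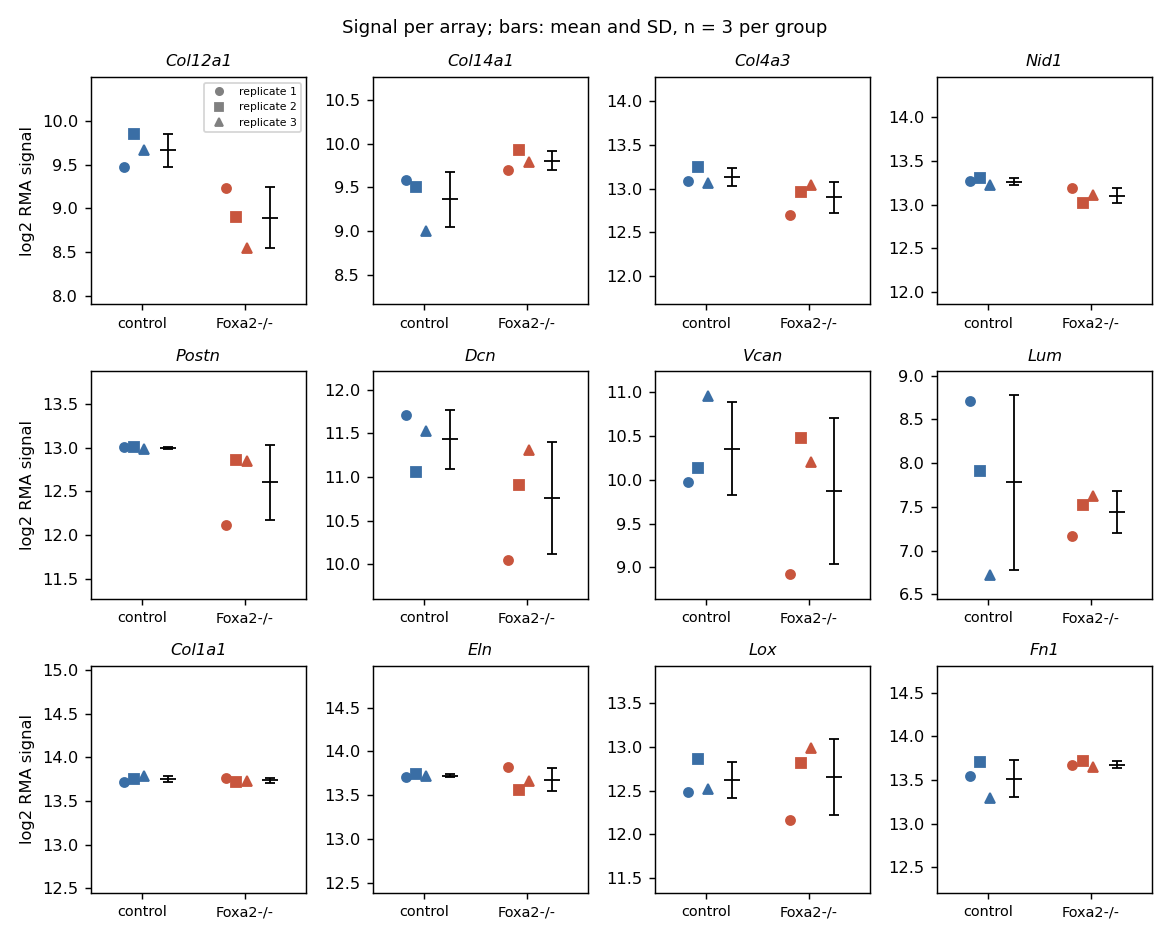
Log2 RMA signal of 12 matrix genes on each array, with the group mean and SD (n = 3 per group) and with the same span of log2 units in every panel. The groups separate in Col12a1, Col14a1, Col4a3, Nid1 and Postn and overlap in the other 7, and null replicate 1 is the lowest null array for Col14a1, Col4a3, Postn, Dcn, Vcan, Lum and Lox.

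Type IV collagen forms the network of every basement membrane. Its alpha1 and alpha2 chains, Col4a1 and Col4a2, are made by many cells, and in adult lung the alpha3 and alpha4 chains, Col4a3 and Col4a4, belong to the membrane shared by epithelium and endothelium. Each pair is head to head in the genome, neighbours with no other coding gene between them. The Col4a1 and Col4a2 transcripts overlap at their starts, and the bases from 1 start to the other are shown on each strand because both genes begin here (RefSeq, GRCm38.p6, chr8:11312805-11312826, 22 bases, 72.7% G or C). The Col4a1 line is the minus strand and the Col4a2 line is the plus strand.
Col4a1: ttggagacgccgcccgcgcact
Col4a2: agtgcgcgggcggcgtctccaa
Col4a1 read 14.116, 14.159 and 13.996 in controls and 14.136, 13.970 and 14.001 in null lungs. Col4a2 read 13.82, 13.90 and 13.75 in controls and 13.96, 13.69 and 13.72 in null lungs. The differences of the pair were -0.05 (95% interval -0.32 to 0.21) and -0.03 (95% interval -0.32 to 0.26), with the groups overlapping in both.

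The Col4a3 and Col4a4 pair lay lower. Col4a3 read 13.09, 13.25 and 13.06 in controls and 12.70, 12.96 and 13.04 in null lungs, so that null replicate 3 was just below the lowest control. The difference was -0.23 (SE 0.13, 95% interval -0.55 to 0.09, limma adjusted p = 0.554). Col4a4 read 12.97, 12.97 and 12.90 in controls and 12.93, 12.62 and 12.72 in null lungs, with overlapping groups. It differed by -0.19 (SE 0.12, 95% interval -0.48 to 0.09). Its second probe set differed by -0.41 (SE 0.12, limma adjusted p = 0.29 over all probe sets), with all null arrays below all controls. Null replicate 1 was the lowest null array for Col4a3 and the highest for Col4a4. Without it the differences were -0.13 for Col4a3 and -0.28 for Col4a4, beside -0.11 for both Col4a1 and Col4a2. Whether this pair differs from Col4a1 and Col4a2 was not tested. Alveolar type I cells are a known source of these chains, and of 10 type I markers none passed. Their median was -0.22, and 5 of the 10 had every null array below all controls (8.73% of all genes). The 10 summed to a linear signal of 88715 to 96003 over the controls and 78362 to 88238 over the null arrays, and its part in the Col4a3 and Col4a4 values was not tested. In whole-lung RNA, fewer cells of a type and less RNA per cell cannot be told apart.

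Col18a1 and Col15a1 encode collagens of the basement membrane zone, of which type XVIII releases endostatin. Col18a1 differed by -0.20 (SE 0.16) with its brightest probe set and by 0.14 with the other. Col15a1, found around vessels and muscle, read 9.82, 9.20 and 8.91 in controls and 9.89, 9.81 and 9.29 in null lungs, a difference of 0.35 (SE 0.27, 95% interval -0.30 to 1.01). Its groups overlapped and its controls spread over nearly a log2 unit.

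Nidogen 1, Nid1, bridges the laminin and type IV collagen networks. It read 13.27, 13.30 and 13.22 in controls and 13.19, 13.01 and 13.11 in null lungs, so every null array was below all controls. The difference is small, -0.16 (SE 0.10, 95% interval -0.41 to 0.09, limma adjusted p = 0.599). Its 2 dimmer probe sets gave -0.43 (SE 0.19) and -0.39 (SE 0.20). The promoter of Nid1 is shown because the groups did not overlap in this gene and its window holds a CCAAT box (CCAAT, searched on both strands) and a GC box (GGGCGG, both strands), in capitals, which do not overlap (RefSeq, GRCm38.p6, chr13:13437352-13437601, plus strand, 250 bases before the start).
Nid1: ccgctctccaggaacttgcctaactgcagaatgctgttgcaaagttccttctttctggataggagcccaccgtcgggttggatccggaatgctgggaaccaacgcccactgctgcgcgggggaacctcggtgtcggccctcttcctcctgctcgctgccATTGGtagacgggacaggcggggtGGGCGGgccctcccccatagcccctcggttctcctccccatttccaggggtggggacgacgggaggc
The CCAAT box is in 37.4% of all windows and in 11 of the 32 windows of the listed genes (11 of 25 genes). The GC box is in 35.7% of all windows and in 17 of the 32 (15 of 25 genes). Lama5, the laminin alpha5 chain, differed by -0.08 (95% interval -0.56 to 0.40). Null replicate 1 was its highest array (11.90) and null replicate 2 its lowest (11.19), with controls between 11.50 and 11.57. Of 19 other basement membrane genes, laminins and others, none passed, with a median of -0.12. The smallest p among them was that of Lama3, a laminin chain of epithelium (-0.42, SE 0.21, limma adjusted p = 0.486), followed by Frem2 (-0.61, SE 0.32, limma adjusted p = 0.507).

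None of the elastic fibre genes passed the test. The groups overlapped in all 8, where 19.6% of all genes had groups that did not overlap. Eln, elastin itself, read 13.70, 13.75 and 13.72 in controls and 13.82, 13.56 and 13.66 in null lungs. The controls lay close together, and the null arrays lay on both sides of them. The difference was -0.05 (SE 0.11, 95% interval -0.32 to 0.22, limma adjusted p = 0.896), and the second probe set gave 0.01. Fbln5, the fibulin that brings elastin to its scaffold, differed by -0.11 (95% interval -0.56 to 0.34), and Mfap4, a microfibril-associated glycoprotein of elastic fibres, by -0.09 (95% interval -0.37 to 0.20). Emilin1, which lies between elastin and microfibrils, differed by -0.02 (95% interval -0.50 to 0.47), and Fbln1, a fibulin of elastic fibres and basement membranes, by 0.05 (95% interval -0.44 to 0.55).

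Fbn2, the fibrillin most used in fetal microfibrils, had a wide spread. It read 10.65, 11.32 and 10.34 in controls and 11.05, 10.06 and 10.33 in null lungs, a difference of -0.29 (SE 0.34, 95% interval -1.10 to 0.52). Between the arrays with a common title number the difference was -1.13, and the control among them is the highest of the 3. Fbln2, a fibulin of vessels and elastic fibres, also had control replicate 2 (9.08) as its highest array; its difference was -0.26 (SE 0.32), and within the shared number it was -0.92. Mfap5, another microfibril protein, had the highest difference of the elastic fibre genes. It read 12.02, 12.24 and 11.65 in controls and 12.43, 12.32 and 12.18 in null lungs. The difference was 0.34 (SE 0.17, 95% interval -0.08 to 0.76, limma adjusted p = 0.503), its second probe set gave 0.40, and within the shared number it was 0.01.

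The lysyl oxidases oxidise lysines of collagen and elastin so that chains can be cross-linked. Lox read 12.49, 12.86 and 12.52 in controls and 12.16, 12.82 and 12.99 in null lungs. Null replicate 1 was the lowest of the 6 arrays and null replicate 3 the highest, and the difference was 0.04 (SE 0.24, 95% interval -0.53 to 0.61). Loxl1, whose product maintains elastic fibres, differed by -0.21 (SE 0.17, 95% interval -0.63 to 0.21). Of 16 other genes of elastic fibres and cross-linking none passed, with a median of -0.01. Emilin2 had the smallest p (8.30, 8.01 and 8.96 in controls, 9.77, 10.69 and 9.51 in null lungs), with a difference of 1.57 (SE 0.37, limma adjusted p = 0.151). Loxl4 differed by 0.42 (SE 0.11, limma adjusted p = 0.186). In both genes every null array was above all controls.

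The small leucine-rich proteoglycans bind collagen fibrils and growth factors. Dcn, decorin, read 11.71, 11.06 and 11.53 in controls and 10.05, 10.91 and 11.31 in null lungs. The groups overlapped, with null replicate 1 far below the others, and the difference was -0.67 (SE 0.34, 95% interval -1.49 to 0.15, limma adjusted p = 0.497). It was -0.32 without null replicate 1 and 0.05 within the shared title number. Lum, lumican, had the largest spread among controls of all 37 genes, reading 8.71, 7.91 and 6.72, against 7.17, 7.52 and 7.63 in null lungs. Its difference of -0.34 (SE 0.48) therefore has an interval from -1.48 to 0.80. Dcn and Lum are neighbours in the genome. Bgn, biglycan, differed by 0.02 (95% interval -0.24 to 0.29) and Fmod, fibromodulin, by -0.10 (95% interval -0.81 to 0.61), and all 6 probe sets of Fmod lay between -0.12 and -0.02.

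Among the large adhesive and matricellular proteins, Postn, periostin, which binds collagen and integrins, had 1 null array far from the rest. It read 13.00, 13.01 and 12.98 in controls and 12.11, 12.86 and 12.85 in null lungs. All null arrays were below all controls, null replicate 1 by far the most. The difference was -0.39 (SE 0.22, 95% interval -0.91 to 0.13, limma adjusted p = 0.536) and -0.14 without null replicate 1. Vcan, versican, a hyaluronan-binding proteoglycan of provisional matrix, had the same array apart. It read 9.97, 10.13 and 10.96 in controls and 8.92, 10.48 and 10.21 in null lungs. Its difference was -0.49 (SE 0.46, 95% interval -1.58 to 0.61), and -0.01 without null replicate 1.

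Fn1, fibronectin, made by fibroblasts and also by macrophages, read 13.54, 13.71 and 13.29 in controls and 13.67, 13.72 and 13.65 in null lungs. The null arrays lay close together in the upper part of the control range, with null replicate 2 level with the highest control. The difference was 0.16 (SE 0.14, 95% interval -0.16 to 0.49). Tnc, tenascin C, differed by -0.07 (95% interval -0.64 to 0.49) and Sparc, a collagen-binding glycoprotein, by -0.04 (95% interval -0.28 to 0.19). Sparc was one of the steadiest genes, with SDs of 0.01 in controls and 0.05 in null lungs.

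Counting arrays rather than p-values, Col14a1 was the only one of the 37 genes with every null array above all controls (10.8% of all genes were), and 4 had every null array below (8.73% of all genes). These 4 were Col12a1, Col4a3, Nid1 and Postn. Together the 5 make 13.5%, against 19.6% of all genes. The count below depends on null replicate 1: without it 17 of the 37 genes lay below all controls, where 19.1% of all genes did. Without control replicate 3 it was 11 of 37, where 13.8% of all genes did. Null replicate 1 was the highest of the 6 arrays for 14 of the 37 genes (34.3% of all genes) and the lowest for 6 (21.7% of all genes). Null replicates 2 and 3 were the lowest array for 12 and 10 of them, where 15.2% and 17.1% of all genes were lowest there. Control replicate 3 was the lowest for 9 (17.8% of all genes), and control replicates 1 and 2 for none (11.2% and 17.0% of all genes).

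The median of the 37 genes on each array, as a deviation from the control mean, was 0.03, 0.04 and -0.07 in controls and 0.07, -0.15 and -0.12 in null lungs. Over all genes the same medians were 0.01, 0.00 and 0.00 in controls and 0.09, -0.02 and -0.03 in null lungs. The matrix median thus lay below that of all genes on each null array, and also on control replicate 3. On null replicate 1 both medians were above the control mean. By group the medians of the differences ran from -0.22 (small leucine-rich proteoglycans) to -0.07 (elastic fibre genes and adhesive proteins). Bright genes as a whole leaned the same way: among all genes above the 90th percentile of signal the median difference was -0.03 and 40.2% were positive, against -0.07 and 18.2% for the 22 matrix genes there. Within the shared title number the median of the 37 was -0.15, with 26 genes below the control on both null arrays (40.9% of all genes) and 3 above it (34.7% of all genes).

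**Figure D3:**
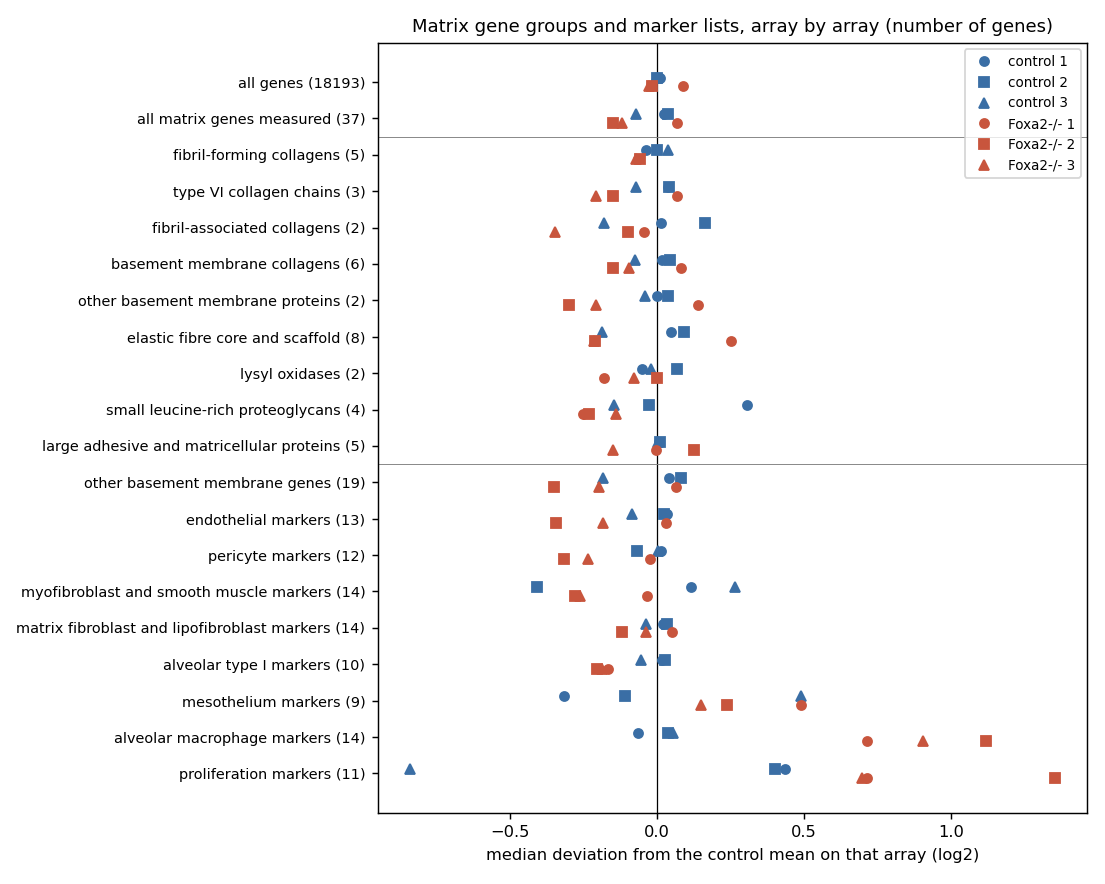
Median deviation from the control mean on each of the 6 arrays (log2), for all genes, for the 37 matrix genes, for their groups by role and for marker lists, with the number of genes in brackets. The matrix groups lie between -0.34 and 0.31, while alveolar macrophage markers lie at 0.72 to 1.12 on the null arrays.

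Several probe sets were available for 30 of the genes. Of these, the second brightest probe set had the sign of the brightest in 23, and in 19 all probe sets had 1 sign. None of the 89 probe sets passed over all probe sets, where 0.0999% did, and the smallest adjusted p was 0.252 (limma), that of Col12a1. Every null array was above all controls in 1 of the 89 (9.73% of all probe sets) and below in 7 (7.76%).

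**Figure D4:**
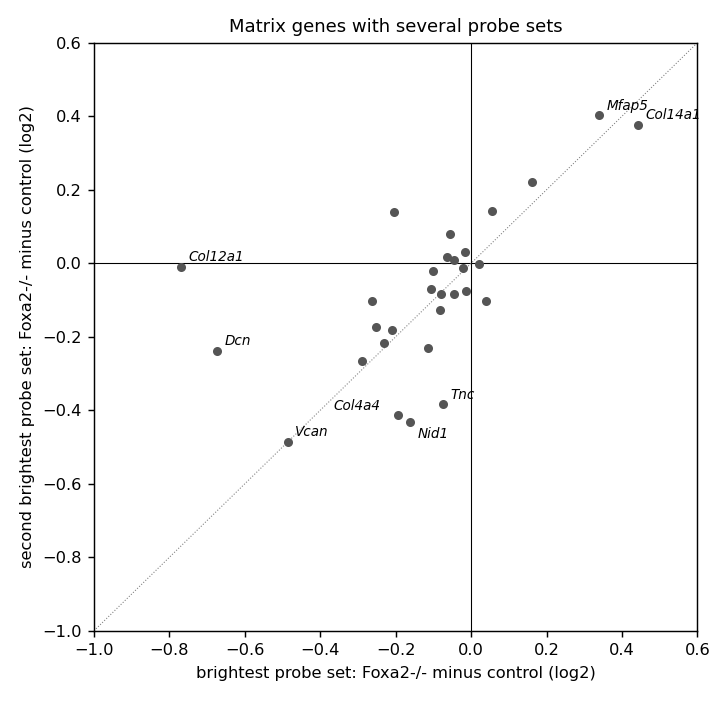
Difference of the brightest probe set against that of the second brightest (log2) for the 30 matrix genes with several probe sets; the dotted line marks equality. Col14a1, Mfap5 and Vcan lie near the line, and Col12a1, whose second probe set is dim, lies far from it.

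Genes that make, trim and sense matrix were read from separate lists. None of 17 genes of collagen making and trimming passed, with a median of 0.01. P4ha2, a subunit of the enzyme that hydroxylates prolines of collagen, read 9.40, 9.55 and 8.79 in controls and 9.95, 9.64 and 10.53 in null lungs (0.79, SE 0.29, limma adjusted p = 0.339). Plod2, which hydroxylates lysines for cross-links, read 10.16, 10.32 and 9.85 in controls and 8.70, 9.55 and 9.75 in null lungs (-0.78, SE 0.29, limma adjusted p = 0.349). The groups of both genes do not overlap, and they lie on opposite sides.

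None of 15 other collagens passed, with a median of -0.12. Col23a1, a transmembrane collagen, had the smallest p, reading 10.817, 10.658 and 10.331 in controls and 9.998, 9.478 and 9.679 in null lungs (-0.88, SE 0.19, limma adjusted p = 0.122). Col27a1, a fibril-forming collagen of cartilage and other tissues, differed by -0.76 (SE 0.19, limma adjusted p = 0.175). In both, all null arrays lay below all controls. Of 25 other proteoglycans and matricellular genes none passed, with a median of -0.17. Thbs4, a thrombospondin, differed by 1.54 (SE 0.28, limma adjusted p = 0.0861) and Vtn, vitronectin, by -0.59 (SE 0.16, limma adjusted p = 0.202).

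In the TGF-beta pathway, which drives matrix production, none of 20 genes passed, with a median of -0.05. Fst, an inhibitor of activins, read 9.62, 9.66 and 10.20 in controls and 10.66, 10.54 and 11.03 in null lungs (0.92, SE 0.21, limma adjusted p = 0.139), and Tgfb1, a ligand, differed by 0.54 (SE 0.18, limma adjusted p = 0.3). Of 17 integrins and other matrix receptors none passed, with a median of -0.07. Itga8, the integrin chain of lung fibroblasts, differed by -0.44 (SE 0.13, limma adjusted p = 0.246) and Cd44, the hyaluronan receptor, by 0.40 (SE 0.16, limma adjusted p = 0.393).

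Markers of the cells that make matrix were read beside these values. None of 14 myofibroblast and smooth muscle markers passed, with a median of -0.26. Hhip, a hedgehog-binding protein of alveolar myofibroblasts, read 11.42, 11.09 and 11.21 in controls and 9.74, 10.24 and 10.47 in null lungs (-1.09, SE 0.21, limma adjusted p = 0.0934), and Tagln, a smooth muscle protein, differed by -0.30 (SE 0.19). None of 14 matrix fibroblast and lipofibroblast markers passed (median -0.08), with 6 differences positive and 8 negative. There, Plin2, a lipid droplet protein, differed by 0.43 (SE 0.12, limma adjusted p = 0.216) and Pi16 by 0.50 (SE 0.18, limma adjusted p = 0.335). None of 12 pericyte markers passed (median -0.22). Trpc6 differed by -0.63 (SE 0.20, limma adjusted p = 0.28) and Abcc9 by -0.44 (SE 0.18), and the list also holds Postn. The 12 pericyte markers, with the matrix gene Postn in the sum, gave a linear signal of 48052 to 48965 over the controls and 41187 to 43652 over the null arrays. For the myofibroblast and smooth muscle markers the sums overlapped, at 41052 to 60159 over the controls and 45173 to 46225 over the null arrays. Those of the matrix fibroblast markers overlapped too, at 80540.5 to 87566 over the controls and 79990 to 81222 over the null arrays. The part of these cells in the matrix values was not tested.

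Markers of other cell types of the lung were read in the same way. None of 13 endothelial markers passed (median -0.17), with Tek at -0.30 (SE 0.11) and Kdr at -0.36 (SE 0.18). Their summed linear signal overlapped, at 73548 to 84479 over the controls and 64900 to 81008 over the null arrays. In the 10 type I cell markers Igfbp2 differed by -2.18 (SE 0.45, limma adjusted p = 0.109) and Rtkn2 by -0.52 (SE 0.18). None of 9 mesothelial markers passed (median 0.24), with Lrrn4 at 1.41 (SE 0.37) and Krt19 at 0.30 (SE 0.13), and none of 12 cartilage markers did (median 0.11), with Sox9 at 1.06 (SE 0.47) and Cnmd at 0.75 (SE 0.37). Of 14 alveolar macrophage markers, 3 passed on the higher side (0.473% of all genes) and none on the lower side (0.0989% of all genes). These were Trem2 at 1.64 (SE 0.15, limma adjusted p = 0.0198), Cd68 at 1.45 (SE 0.13, limma adjusted p = 0.0198) and Itgax at 1.94 (SE 0.23, limma adjusted p = 0.036). The other 11 did not pass. Of the 14 differences 13 were positive and 1 negative. In 10 of the genes every null array was above all controls (10.8% of all genes), and in 4 the groups overlapped. The 14 summed to a linear signal of 36817 to 41587 over the controls and 55329 to 69291 over the null arrays, and the part of macrophage RNA in the matrix values was not tested. The 11 proliferation markers had a median of 0.80 with none passing, led by Birc5 (1.502, SE 0.40) and Plk1 (0.84, SE 0.25), and control replicate 3 was far below the other controls there.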

How the data were processed

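The deposited values of the 6 Affymetrix mouse arrays are on a log2 scale and were made by the authors with RMA, per the submitters' processing notes. For RMA no version or setting is named there. That the scale is log2 follows from the range of the values, and ranked array by array the largest gap was 0.138. RMA equalises arrays, so a shift of most genes one way would not be seen. Of 45101 probe sets, 64 Affymetrix controls were left out and 45037 kept, with no filter on dim signal. Of these, 34945 had 1 gene symbol in the platform annotation, 932 several and 9160 none. The brightest single-gene probe set represented each of 18193 genes.

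Groups followed the genotype label. Replicate numbers are in accession order and pair nothing. No pair of arrays was identical. R 4.3.3 and limma 3.58.1 gave the differences (lmFit, then eBayes, two-sided, no covariate), with Benjamini-Hochberg adjustment over all genes or, where stated, all probe sets, a threshold of 0.05 and 95% intervals. The fit was also tested on simulated data.

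The genes and the 16 context lists were chosen with earlier results of these data known. Of the 251 list entries 238 had a gene on the array. From each list up to 3 genes that passed are named, or else the 2 with the smallest p; Ager and Pecam1 were named as a check of the tissue. Promoter windows (250 bases before to 50 after a start) are from RefSeq, GRCm38.p6; 15 of the 40 genes are without one here, and 7 have several. The values carry no genome build. The motifs searched were the forkhead core, the CCAAT box and the GC box.

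Alternatives covered the scaling (median centring, cyclic loess), 2 filters on dim genes, eBayes with trend and robust, array weights, averaging all probe sets per gene, a threshold of 0.1 and leaving out each array. The shared title number served as a block, fixed or random (statmod), and to restrict the samples.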

Additional observations from a re-analysis of the deposited data

How the results depend on the processing

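No matrix gene passed in either direction under any alternative that gave a test, except array weights, where 1, Col12a1, was lower (-0.87, limma adjusted p = 0.0465). The median difference of the matrix genes stayed between -0.15 and -0.05 under all alternatives. Of the 37 genes, 20 kept the sign of their difference throughout and 17 did not.

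The count with every null array above all controls was 0 when probe sets were averaged per gene (2050 of all 18193 genes). It was 3 within the shared title number (34.7% of all genes) and 1 to 3 when an array was left out (14.3% to 17.5% of all genes). The count below was 26 within the shared number (40.9% of all genes) and 4 to 17 when an array was left out (12% to 19.1% of all genes). Within the shared number only 1 control is compared with 2 null arrays. Over all genes 104 passed: cyclic loess gave 48, genes above the median level 52, array weights 607, a fixed block on the title number 0 (2121 at an unadjusted p under 0.05, limma), a random block 399, a threshold of 0.1 320, and leaving out an array 0 to 249. Control replicate 3 left out gave 19, null replicate 2 gave 7 and null replicate 1 gave 249. Control replicate 1, control replicate 2 and null replicate 3 each gave 0, where limma left 1654, 1801 and 2111 at an unadjusted p under 0.05. Foxa2 passed under eBayes with trend and robust (-4.30), array weights (-4.95), the random block (-4.64) and a threshold of 0.1 (-4.30), and leaving out an array gave -5.12 to -3.83, where it passed without null replicate 1. The cause of these shifts was not tested. Replicate numbers were given in accession order and pair no arrays. The title number links 1 control with 2 null arrays, and the fixed block on it rests on those 3 arrays (Foxa2 -5.31, limma adjusted p = 0.131). The number of arrays, 3 a group, limits the precision.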
